A study of Monodelphis domestica and Mus musculus with 26 samples.

Results

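The 10 genes described here, of retinoic acid supply, breakdown and reception and of entry into meiosis, were followed through adult testis cells of mouse and gray short-tailed opossum and through opossum testis from 1 month of age to adulthood. They were chosen by symbol: RBP4, ALDH1A1, ALDH1A2, CYP26B1, RARG, STRA8, KIT, SOHLH1, SOHLH2 and DMRT1. All 10 were named among the 32532 genes of the mouse single-cell tables. Of these, 6 were named among the 32251 genes of the opossum single-cell tables and the 34985 genes of the opossum bulk tables, and SOHLH1, SOHLH2, RARG and CYP26B1 were not analysed here in opossum. Opossum positions are as the deposited bulk tables give them, on a build not given in the sources used here, and mouse positions are those of GRCm39. Whole-testis suspensions, made with collagenase and trypsin, were sequenced as 3′ droplet libraries from 3 samples of adult C57BL6/J mice, given as 8 to 16 weeks old, and from 3 samples of adult opossums (Monodelphis domestica, a marsupial). Bulk RNA was sequenced from opossum testes at 1 month (n = 2), 2 months (n = 4), 3 months (n = 4), 4 months (n = 3) and in adults (n = 7). No treatment or genotype was named for any group. Bulk RNA was polyA-selected for 16 libraries and rRNA-depleted for 4, which are replicates 2, 3 and 4 of 2 months and replicate 2 of the adults. Nothing in the labels says that the samples of a group are separate animals, so the p-values below measure the spread between samples.

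Retinoic acid is made from vitamin A. RBP4 carries retinol in blood, retinaldehyde dehydrogenases such as ALDH1A1 and ALDH1A2 make retinoic acid from retinaldehyde, and CYP26B1 breaks it down. In the testis, retinoic acid acts through nuclear receptors such as RARG and is known to drive spermatogonia to differentiate and to enter meiosis, with STRA8 and KIT among the genes that it induces. SOHLH1 and SOHLH2 are helix-loop-helix factors of spermatogonial differentiation, and DMRT1 is a factor of spermatogonia and Sertoli cells that holds back meiosis in mouse spermatogonia.

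Mouse promoter windows are shown for Stra8 and Sohlh1, the members with 2 matches to a retinoic acid receptor half-site, and for Cyp26b1, which has 1. The half-site AGGTCA was searched together with its variants GGGTCA as well as AGTTCA as well as GGTTCA on both strands, from 250 bases before to 20 bases after the start of each gene's canonical transcript (GENCODE vM39, GRCm39). Capitals mark the half-sites. Stra8 (ENSMUSG00000029848, chromosome 6, forward strand) is shown as a 30-base window around each of its half-sites, which begin 161 and 5 bases before the start. The windows of Sohlh1 (ENSMUSG00000059625, chromosome 2) and Cyp26b1 (ENSMUSG00000063415, chromosome 6) lie on the reverse strand and are whole.
Stra8 (chr6:34897677-34897706, forward strand): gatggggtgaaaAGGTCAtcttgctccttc
Stra8 (chr6:34897833-34897862, forward strand): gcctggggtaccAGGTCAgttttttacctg
Sohlh1 (chr2:25737332-25737601, reverse strand): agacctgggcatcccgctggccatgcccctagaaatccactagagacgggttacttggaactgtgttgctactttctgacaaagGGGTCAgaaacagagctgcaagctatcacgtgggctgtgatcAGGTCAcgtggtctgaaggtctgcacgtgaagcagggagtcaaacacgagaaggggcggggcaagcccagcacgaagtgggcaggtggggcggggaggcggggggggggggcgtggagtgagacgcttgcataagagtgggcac
Cyp26b1 (chr6:84565946-84566215, reverse strand): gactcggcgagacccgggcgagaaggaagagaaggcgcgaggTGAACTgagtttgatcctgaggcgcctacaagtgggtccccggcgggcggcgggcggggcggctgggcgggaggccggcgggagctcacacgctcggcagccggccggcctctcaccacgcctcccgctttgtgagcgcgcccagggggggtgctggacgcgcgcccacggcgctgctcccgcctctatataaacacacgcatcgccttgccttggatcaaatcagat
In Sohlh1 the half-sites begin 166 and 124 bases before the start and there are 4 E-boxes (CANNTG), of which 3 have the letters CACGTG. The Stra8 window has no E-box. Aldh1a1 has 1 half-site, and the windows of Aldh1a2, Dmrt1, Kit, Rarg, Rbp4 and Sohlh2 have none. Of 21770 protein-coding promoters of this length, 39.9% hold at least 1 of the half-sites and 67.3% an E-box, so a match describes the letters and no more.

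After filtering, 7208 to 8714 cells per mouse library and 5126 to 7476 per opossum library remained, at median depths of 2763 to 4438 and 1619 to 2296 UMIs. The libraries of a species shared between 0 and 198 barcodes. Cells were grouped by marker genes into 9 classes. Germ cells were divided into spermatogonia, spermatocytes, round spermatids and elongating spermatids, and somatic cells into Leydig cells, Sertoli cells, peritubular or stromal cells, immune cells and endothelial cells. Opossum classes rest on fewer named markers. Of the 9 Sertoli markers found in opossum, SOX9, WT1 and FSHR were highest in the cells named Sertoli, when compared with spermatogonia, Leydig and peritubular or stromal cells. These cells also held UCHL1, a gene of the spermatogonia list, at 3057 ± 642 CPM (SD, n = 3), against 2778 ± 787 CPM in spermatogonia. Of the 17 genes of that list found in opossum, 10 were highest in spermatogonia among the same classes. GFRA1, for example, stood at 813 CPM in spermatogonia and 10.1 CPM in Sertoli cells. Of these Sertoli cells, 1895 lay in a cluster named on 3 markers. Of the mouse Sertoli cells, 101 of the 251 of replicate 3 lay in a cluster led by mitochondrial genes, and 3878 mouse cells in 3 clusters were left unnamed. Levels below are CPM, the estimated counts of a gene over all estimated counts in the cells of a class of a library, scaled to 1e6.

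RBP4, the retinol carrier, had its highest class mean in mouse spermatogonia, with overlap of peritubular or stromal cells, and was at or near 0 in most opossum classes. Mouse Rbp4 (chromosome 19, 38105066 to 38113754) stood at 136, 172 and 104 CPM in the spermatogonia of replicates 1 to 3. In opossum spermatogonia RBP4 (ENSMODG00000028966) stood at 0.409, 0 and 0 CPM. The species did not overlap, and mouse was at least 185-fold higher when the opossum level is set to 3 counts over the group. RBP4 passed the filter on low counts through mouse alone, and with no filter the adjusted p was 4.89e-08 (edgeR quasi-likelihood test, Benjamini-Hochberg). Opossum RBP4 was at 0 in all libraries of spermatocytes, round spermatids, elongating spermatids, Sertoli and Leydig cells, which allows up to 0.215 to 0.457 CPM in these classes if 3 counts are taken as the limit. Mouse peritubular or stromal cells held Rbp4 at 40.4, 10.3 and 269 CPM. These counts lay in a cluster led by the smooth muscle genes ACTA2, TAGLN and MYH11, at 143, 162 and 341 CPM, and were at 0 in all 3 libraries of the other cluster of this class, led by DCN. In opossum peritubular or stromal cells RBP4 stood at 0, 0 and 1.30 CPM (edgeR adjusted p with no filter = 9.55e-05). Endothelial cells, the opossum class with the highest mean, held 10.4, 0 and 0 CPM, which overlapped with mouse endothelial cells at 0 and 13.7 CPM. Mouse replicate 3 holds 154 of the 223 cells of the ACTA2 cluster, and was the library with the highest class level.

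**Figure D1:**
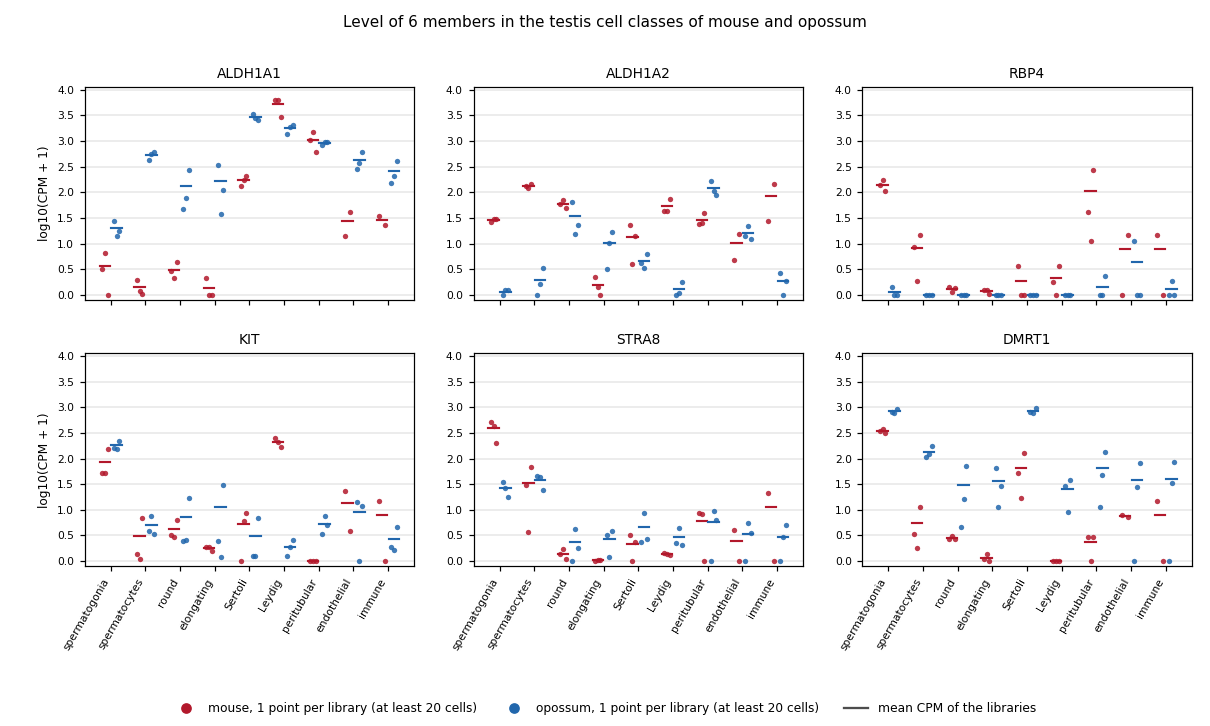
log10(CPM + 1) of the 6 genes named in both species, by cell class, with 1 point per library and a bar at the mean, for mouse and opossum. ALDH1A1 is highest in mouse Leydig cells, at 2929 to 6399.8 CPM, and in opossum Sertoli cells, at 2537 to 3391 CPM, and opossum RBP4 lies at 0 in most classes.

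ALDH1A1, a retinaldehyde dehydrogenase, had its highest CPM in Leydig cells in mouse and in Sertoli cells in opossum, the latter a rank that the fit between opossum Leydig and Sertoli cells did not call. In mouse (chromosome 19, 20469539 to 20622825) it stood at 6257, 6399.8 and 2929 CPM in Leydig cells, at 1022, 1483 and 599 CPM in peritubular or stromal cells and at 133, 175 and 211 CPM in Sertoli cells. These 3 classes did not overlap in mouse. In opossum (ENSMODG00000002501, chromosome 6) it stood at 3391, 2768 and 2537 CPM in Sertoli cells, at 1353, 1873 and 2083 CPM in Leydig cells and at 828, 956 and 941 CPM in peritubular or stromal cells. Here too the classes did not overlap, in another order.

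Between species, ALDH1A1 was 16.7-fold higher in opossum Sertoli cells by the class means (log2 difference 3.81, SE 0.62, edgeR adjusted p = 0.000539) and 2.94-fold higher in mouse Leydig cells (log2 difference -1.54, SE 0.40, edgeR adjusted p = 0.00346). In peritubular or stromal cells the species overlapped (log2 difference -0.24, SE 0.41, edgeR adjusted p = 0.634). With at least 2000 UMIs per cell the Sertoli difference was 3.43 and no longer passed (edgeR adjusted p = 0.0958). Within mouse, Leydig cells exceeded Sertoli cells by 4.80 on the log2 scale (edgeR adjusted p = 0.000302) and peritubular or stromal cells by 2.27 (adjusted p = 0.00793), the latter with an adjusted p of 0.115 without replicate 1 and 0.0889 without replicate 2. Within opossum, peritubular or stromal cells lay 1.75 below Sertoli cells (log2 difference -1.75, edgeR adjusted p = 0.000724, and 0.0636 with a minimum of 2000 UMIs in a cell), and the difference of Leydig from Sertoli cells was -0.23 in the fit (adjusted p = 0.552) and changed sign in 2 of 11 alternatives.

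Germ cells differed as well. Mouse spermatocytes held ALDH1A1 at 0.989, 0.191 and 0.0643 CPM, and opossum spermatocytes at 419, 546 and 606 CPM, without overlap (log2 difference 9.22, SE 0.86). ALDH1A1 passed the filter on low counts there through opossum alone, and with no filter the difference was 9.15 (edgeR adjusted p = 3.11e-05). In opossum spermatogonia it stood at 26.4, 13.0 and 16.9 CPM, below every library of opossum spermatocytes (log2 difference 4.97, SE 0.27, edgeR adjusted p = 7.01e-07). Mouse spermatogonia held 2.63 ± 2.88 CPM (SD, n = 3), so the mouse change to spermatocytes lay between values near 0. The change from spermatogonia to spermatocytes differed between the species by 6.03 (SE 1.09), in a fit that ALDH1A1 entered through opossum alone. With no filter on low counts the difference was 5.92 (edgeR adjusted p = 0.000230). When cells were clustered at Leiden resolution 2 it was 3.71 (adjusted p = 0.0555).

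Sertoli RNA outside Sertoli cells was followed with SOX9, WT1 and FSHR, picked from the marker list after their levels were seen, and each was expressed as a percentage of the Sertoli level of the same library. In opossum spermatocytes the 3 markers together stood at 5.38% on average (range 3.57% to 7.20%), ALDH1A1 at 18.7% (12.3% to 23.9%) and DMRT1 at 15.8% (13.5% to 18.2%). In the spermatocyte cluster with the highest ALDH1A1, at 837, 966 and 1903 CPM, the 3 markers stood at 6.29% and ALDH1A1 at 44.9%. In opossum Leydig cells the 3 markers were at 3.27% and ALDH1A1 at 63.2%, and in spermatogonia at 0.569% and 0.637%. The whole list of 9 Sertoli markers gave another picture in somatic cells, at 51.0% in Leydig cells and 43.5% in peritubular or stromal cells, and stood at 4.47% in spermatocytes and 2.80% in spermatogonia.

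Among opossum elongating spermatids ALDH1A1 was uneven. A cluster of 1188 cells, of which 845 were from replicate 1, held it at 910.4, 1126 and 1006 CPM, and the SOX9, WT1 and FSHR sum there was at 15.4% of the Sertoli level. Another cluster of 433 cells held ALDH1A1 at 0, 0.0678 and 0 CPM, with the 3 markers at 1.86%. The part of Sertoli RNA in the ALDH1A1 level of these clusters was not tested.

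**Figure D2:**
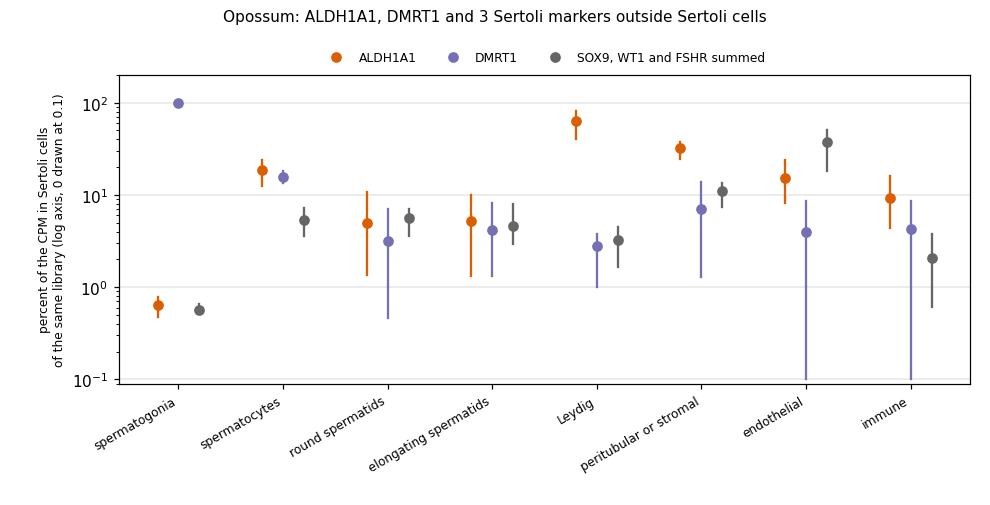
ALDH1A1, DMRT1 and the sum of SOX9, WT1 and FSHR in opossum classes other than Sertoli cells, as a percentage of the CPM in Sertoli cells of the same library (log axis). Points are means over 3 libraries and lines run from the lowest to the highest library: ALDH1A1 lies above the 3 markers in Leydig cells (63.2% against 3.27%) and spermatocytes (18.7% against 5.38%), near them in spermatogonia (0.637% against 0.569%) and below them in endothelial cells (15.2% against 37.4%).

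ALDH1A2, the retinaldehyde dehydrogenase best known for retinoic acid synthesis in the embryo, had its highest class mean in spermatocytes in mouse and in peritubular or stromal cells in opossum. In mouse (chromosome 9, 71122630 to 71203527) it stood at 133, 121 and 147 CPM in spermatocytes, at 57.9, 69.8 and 47.7 CPM in round spermatids and at 25.6, 29.4 and 29.4 CPM in spermatogonia. These 3 classes did not overlap. Mouse immune cells, at 26.8 and 142 CPM, and Leydig cells, at 52.7 ± 18.1 CPM (SD, n = 3), overlapped with some of them, and mouse peritubular or stromal cells were at 28.1 ± 8.38 CPM (SD, n = 3). In opossum (ENSMODG00000008641, chromosome 1) spermatocytes were at 0, 0.606 and 2.30 CPM and spermatogonia at 0, 0.226 and 0.238 CPM, and the highest class was peritubular or stromal cells, at 163, 104 and 88.8 CPM.

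Mouse ALDH1A2 was 138-fold higher in spermatocytes and at least 40.5-fold higher in spermatogonia. In both classes it passed the filter on low counts through mouse alone. With no filter the edgeR adjusted p was 3.17e-05 in spermatocytes and 5.96e-06 in spermatogonia. Opossum was 4.21-fold higher in peritubular or stromal cells (log2 difference 2.05, SE 0.38, edgeR adjusted p = 0.00157). Mouse Leydig cells held ALDH1A2 at 42.9, 41.7 and 73.6 CPM and opossum Leydig cells at 0, 0.112 and 0.808 CPM. In Leydig cells ALDH1A2 also passed the filter through mouse alone, and with no filter the edgeR adjusted p was 8.05e-23. From mouse spermatogonia to spermatocytes ALDH1A2 rose by 3.17 on the log2 scale (SE 0.26, edgeR adjusted p = 0.000465), the only called member to rise there.

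Within the opossum peritubular or stromal class, ALDH1A2 was higher in the cluster led by DPYD, SVEP1 and COL3A1, at 213, 162 and 221 CPM, than in the cluster led by MGP, LUM and DCN, at 89.0, 106 and 111 CPM. Opossum round spermatids held 64.7, 14.2 and 21.6 CPM, a spread that overlapped with endothelial cells. In Leydig against Sertoli cells, ALDH1A2 was higher in mouse Leydig cells (log2 difference 1.84, edgeR adjusted p = 0.0154) and lower in opossum Leydig cells (-2.19, adjusted p = 0.0382). The opossum contrast lay between low values, 3.60 ± 1.49 CPM in Sertoli cells and 0.307 ± 0.438 CPM in Leydig cells (SD, n = 3). Mouse Sertoli cells held 12.8 ± 9.60 CPM (SD, n = 3). The mouse call was lost in 3 alternatives: without replicate 2 (adjusted p = 0.118), at Leiden resolution 2 (1.06, adjusted p = 0.115) and with a minimum of 2000 UMIs in a cell (adjusted p = 0.0785), and the opossum adjusted p was 0.103 without replicate 1 and 0.123 without replicate 2. In the log2(CPM + 1) values of single libraries, Leydig minus Sertoli was above 0 in all mouse libraries and below 0 in all opossum libraries, a difference between species that was not tested.

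CYP26B1, the retinoic acid hydroxylase, was measured in mouse only, where it was high in peritubular or stromal cells. These cells held it at 581, 559 and 1966 CPM, and no other class exceeded 10 CPM in any library (chromosome 6, 84548396 to 84570890). Spermatogonia stood at 6.04 ± 3.08 CPM and Sertoli cells at 5.95 ± 2.14 CPM (SD, n = 3), and endothelial and immune cells at 0. Both peritubular or stromal clusters held it, the ACTA2 cluster at 753, 620.5 and 2222 CPM and the DCN cluster at 513, 555 and 999.7 CPM. Peritubular or stromal cells exceeded Sertoli cells by 6.98 on the log2 scale (edgeR adjusted p = 0.000192). Cyp26b1 passed the filter on low counts in that fit through peritubular or stromal cells alone. With no filter the difference was 6.89 (edgeR adjusted p = 4.13e-25). At these low levels the change from spermatogonia to spermatocytes was -2.61 (SE 0.92, edgeR adjusted p = 0.0480) and lost its call without replicate 1 (adjusted p = 0.0782) or replicate 2 (adjusted p = 0.0890).

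RARG, the retinoic acid receptor gamma, was low in mouse (chromosome 15, 102143373 to 102165952). It stood at 25.6, 13.6 and 23.5 CPM in spermatogonia and at 0.808, 0.484 and 1.11 CPM in spermatocytes. Rarg fell by 3.81 on the log2 scale between these classes (SE 0.51, edgeR adjusted p = 0.00190). It passed the filter on low counts through spermatogonia, the class where it is higher. With no filter the log2 difference was -3.67 (edgeR adjusted p = 7.18e-06). Endothelial cells (26.9 ± 12.2 CPM, SD, n = 2) and peritubular or stromal cells (13.9 ± 8.74 CPM, SD, n = 3) overlapped with spermatogonia, so the order of these 3 classes is not resolved.

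**Figure D3:**
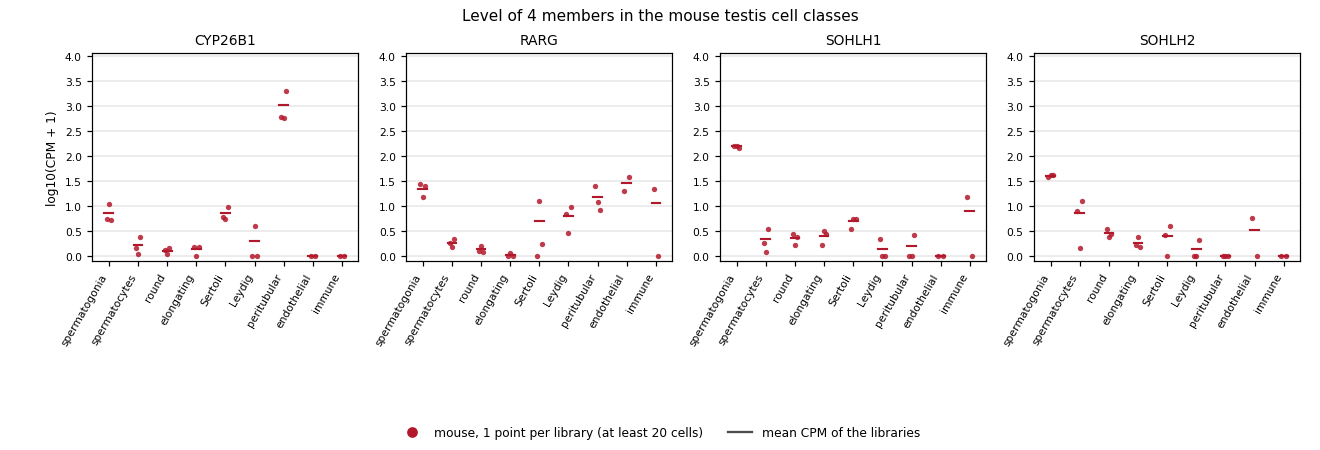
log10(CPM + 1) of the 4 genes measured in mouse only, by cell class, with 1 point per library and a bar at the mean. Cyp26b1 stands at 559 to 1966 CPM in peritubular or stromal cells and Sohlh1 at 141 to 158 CPM in spermatogonia.

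STRA8, the retinoic acid-induced factor of meiotic initiation, was higher in mouse than in opossum spermatogonia as a class. Mouse Stra8 stood at 519, 435 and 202 CPM in spermatogonia and at 29.5, 2.65 and 65.9 CPM in spermatocytes. Opossum STRA8 (ENSMODG00000014081, chromosome 8, 196062014 to 196079000) stood at 33.9, 25.4 and 16.5 CPM in spermatogonia and at 44.0, 41.8 and 23.2 CPM in spermatocytes. Spermatogonia did not overlap between species, with mouse 15.3-fold higher (log2 difference -4.09, SE 0.46, edgeR adjusted p = 4.36e-05).

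In spermatocytes the species overlapped for STRA8 (log2 difference -0.56, SE 0.79, edgeR adjusted p = 0.543). Mouse replicate 2, with the lowest Stra8 among mouse spermatocytes, also holds few cells of the early spermatocyte clusters, and without it the difference was -1.11 (adjusted p = 0.0437). Within mouse, Stra8 fell by 3.34 from spermatogonia to spermatocytes (SE 0.99, edgeR adjusted p = 0.0272). Within opossum it was 0.71 higher in spermatocytes (SE 0.24, adjusted p = 0.0225), under the log2 difference of 1 required of a call. The change differed between species by 4.02 (SE 1.03, edgeR adjusted p = 0.00795).

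Stra8 was high in parts of both mouse spermatogonia and spermatocytes. An early spermatocyte cluster of 565 cells with the meiotic recombination gene DMC1 among its leading genes, held Stra8 at 1278, 1847 and 796 CPM, of which the value of replicate 2 rests on 12 cells. The 2 spermatogonia clusters held 475, 139 and 84.8 CPM and 529.8, 477 and 225 CPM. When mouse spermatogonia were subdivided, 1 subcluster held Stra8 at 1365 CPM in 147 cells of replicate 1 and at 968 CPM in 73 cells of replicate 2, with 1 cell of replicate 3. Another spermatocyte cluster of 694 cells, led by RAD51AP2 and MEIOB, held 33.1 and 15.6 CPM in replicates 1 and 3, and 591 CPM in the 14 cells of replicate 2. In opossum the spermatocyte cluster with the highest STRA8 (625 cells) held 94.4, 132 and 62.6 CPM, below all mouse values of the cluster with DMC1.

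**Figure D4:**
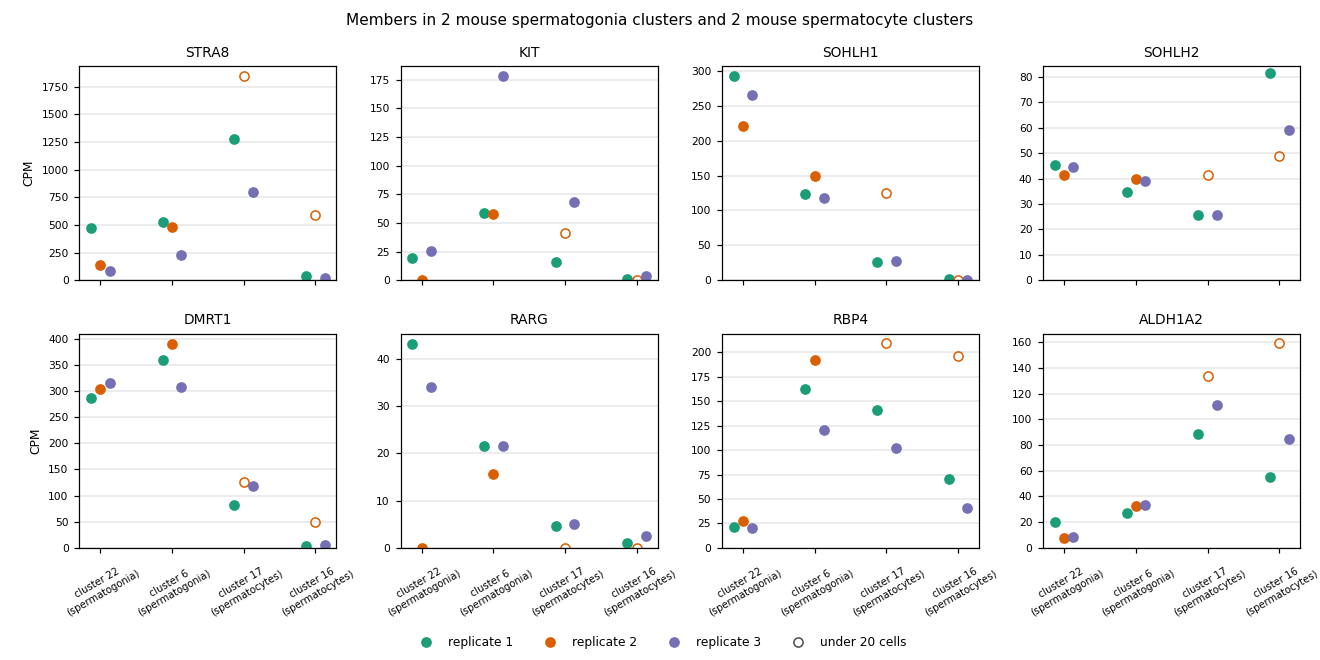
CPM (linear axis) of members in mouse spermatogonia clusters 22 (led by SDC4 and ZBTB16) and 6 (led by CRABP1) and spermatocyte clusters 17 (with DMC1) and 16 (with MEIOB), with 1 point per library, open where it rests on fewer than 20 cells. Among these 4 clusters Stra8 is highest in the spermatocyte cluster with DMC1 (796 to 1847 CPM) and Sohlh1 in the spermatogonia cluster led by SDC4 and ZBTB16 (221 to 293 CPM). Sohlh2 stands at 48.8 to 81.5 CPM in the spermatocyte cluster with MEIOB.

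KIT, the receptor of differentiating spermatogonia and of Leydig cells, marked the same germ cell class in both species and Leydig cells in mouse only. Mouse Kit (chromosome 5, 75735576 to 75817404) stood at 51.2, 50.4 and 154 CPM in spermatogonia and at 249.9, 206 and 168 CPM in Leydig cells. Opossum KIT (ENSMODG00000020671) stood at 161, 154 and 221 CPM in spermatogonia and at 0.236, 0.885 and 1.53 CPM in Leydig cells. In Leydig cells mouse was 235-fold higher (log2 difference -7.79, SE 0.55). KIT passed the filter on low counts there through mouse alone, and with no filter the edgeR adjusted p was 2.13e-38.

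In spermatogonia the libraries of the species came close in KIT without overlap, at 154 CPM in mouse replicate 3 and in opossum replicate 2. The opossum excess was not called (log2 difference 0.88, SE 0.37, edgeR adjusted p = 0.0596). Mouse replicate 3 stands apart here. When mouse spermatogonia were subdivided, 187, 172 and 158 of its 634 cells formed subclusters with no cell of replicates 1 and 2, at Kit levels of 143, 247 and 111 CPM. It was called without mouse replicate 3 (1.65, adjusted p = 7.62e-05) and with the replicate number as a block (1.05, adjusted p = 0.0120). From spermatogonia to spermatocytes KIT fell by 5.58 in mouse (SE 0.74, edgeR adjusted p = 0.00187) and fell by 5.16 in opossum (SE 0.31, adjusted p = 1.08e-06). Mouse Kit passed the filter on low counts through spermatogonia, and with no filter its log2 difference was -5.43 (edgeR adjusted p = 3.86e-11). The difference of these changes, 0.09, was not called. In spermatocytes KIT was low in both species, at 2.12 ± 3.25 CPM in mouse and 3.97 ± 2.31 CPM in opossum (SD, n = 3). It was called between species there only without mouse replicate 3 (2.61, edgeR adjusted p = 0.0218).

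Within spermatogonia KIT split the cells. In mouse, the smaller cluster, led by SDC4 and ZBTB16, held Kit at 18.9, 0 and 25.3 CPM, and the larger one, led by CRABP1, at 58.7, 57.4 and 178 CPM. Opossum spermatogonia were subdivided with the members left out. The subcluster with the highest summed list of undifferentiated spermatogonia genes (104 cells, 2162 CPM) held KIT at 0, 5.00 and 15.2 CPM. The highest KIT, at 497, 363 and 543 CPM, was in a subcluster of 72 cells at 1286 CPM of that list. The 2 measures did not run opposite throughout. A subcluster of 42 cells at 1987 CPM of the list held KIT at 217, 170.0 and 136 CPM, and one of 56 cells at 540.0 CPM held it at 45.7 CPM pooled over libraries. STRA8 was highest in a subcluster of 38 cells, at 238, 191 and 172 CPM, where KIT pooled over libraries was 68.4 CPM and the meiotic entry list was the highest of the 8 subclusters, at 3409 CPM. Several of these values rest on fewer than 20 cells of a library.

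SOHLH1 and SOHLH2, measured in mouse only, were highest in spermatogonia. Sohlh1 (chromosome 2, 25733007 to 25737351) stood at 155, 158 and 141 CPM in spermatogonia and at 0.805, 0.174 and 2.42 CPM in spermatocytes, a fall of 6.56 on the log2 scale (SE 0.67, edgeR adjusted p = 0.000853). Sohlh1 passed the filter on low counts through spermatogonia, the class where it is high. With no filter the log2 difference was -6.42 (edgeR adjusted p = 1.18e-14). It was higher in the ZBTB16 cluster of spermatogonia, at 293, 221 and 265 CPM, than in the CRABP1 cluster, at 124, 149 and 117 CPM. Sohlh2 (ENSMUSG00000027794, chromosome 3, 55089265 to 55117382) stood at 36.8, 40.2 and 39.9 CPM in spermatogonia and at 6.84, 0.396 and 11.3 CPM in spermatocytes. That change missed the threshold (log2 difference -2.41, SE 0.90, edgeR adjusted p = 0.0568) and was called in 7 of 11 alternatives, among them leaving out any 1 of the 3 libraries (adjusted p = 0.0168, 0.0240 and 0.00381 without replicates 1, 2 and 3). In the early spermatocyte clusters Sohlh2 stood at 25.6, 41.5 and 25.6 CPM with DMC1 and at 81.5, 48.8 and 59.2 CPM with MEIOB. The second exceeded the spermatogonia class as a whole in every library. A subcluster of spermatogonia held Sohlh2 at 45.1, 75.0 and 44.5 CPM, which overlapped with the MEIOB cluster.

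DMRT1, the factor of spermatogonia and Sertoli cells, was found in both of these classes in both species, at like levels in opossum and mainly in spermatogonia in mouse. Mouse Dmrt1 (chromosome 19, 25482860 to 25581693) stood at 345, 380.2 and 309.8 CPM in spermatogonia and at 52.3, 15.9 and 127 CPM in Sertoli cells. Opossum DMRT1 (ENSMODG00000003401, chromosome 6, 99634831 to 99775868) stood at 814, 774 and 940.0 CPM in spermatogonia and at 798, 779 and 972 CPM in Sertoli cells. The 2 opossum classes overlapped and the 2 mouse classes did not.

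Opossum DMRT1 was 2.44-fold higher in spermatogonia (log2 difference 1.09, SE 0.24, edgeR adjusted p = 0.00241) and 13.1-fold higher in Sertoli cells (3.40, SE 0.67, adjusted p = 0.00158). The Sertoli difference was 2.95 with at least 2000 UMIs per cell (adjusted p = 0.0678). In spermatocytes opossum DMRT1 stood at 108, 123 and 177 CPM and mouse Dmrt1 at 2.40, 0.790 and 10.6 CPM, a 29.6-fold difference (log2 4.21, SE 0.73, edgeR adjusted p = 0.00121). From spermatogonia to spermatocytes it fell by 5.96 in mouse and fell by 2.48 in opossum, and the difference of these changes was 3.43 (SE 0.65, edgeR adjusted p = 0.00149).

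Within opossum spermatocytes DMRT1 was highest in the cluster with the highest STRA8, at 229, 289 and 284 CPM, where the SOX9, WT1 and FSHR sum was at 2.40% of the Sertoli level. Other opossum somatic classes held less: Leydig cells 27.8, 7.90 and 36.7 CPM, and peritubular or stromal cells 10.2, 47.3 and 132 CPM. Replicate 3 was the highest library in these 2 classes and in immune and endothelial cells. It was also the library with the lowest median depth, and the part of depth in these values was not tested. Mouse Leydig cells were at 0, so that opossum was at least 16.5-fold higher there. As a share of the Sertoli level, DMRT1 ran from 1.01% to 3.77% over libraries in opossum Leydig cells and from 1.28% to 13.6% in peritubular or stromal cells. The SOX9, WT1 and FSHR sum, picked after levels were seen, overlapped with it in both, at 1.64% to 4.46% and 7.39% to 13.6%. The whole list of 9 Sertoli markers lay above DMRT1 in both, at 51.0% and 43.5% on average. The part of Sertoli RNA in these DMRT1 levels was not tested.

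In spermatids, ALDH1A1 and DMRT1 were higher in opossum. ALDH1A2 was lower in opossum round spermatids, and its direction in elongating spermatids depended on the processing. In round spermatids the log2 difference was 4.95 for ALDH1A1 (edgeR adjusted p = 5.59e-05), 2.92 for DMRT1 (adjusted p = 0.00638) and -1.77 for ALDH1A2 (adjusted p = 0.0121). As a share of the Sertoli level, opossum round spermatids held ALDH1A1 at 4.97% and DMRT1 at 3.17%, against 5.67% for SOX9, WT1 and FSHR, and elongating spermatids held 5.22% and 4.15%, against 4.59%. These shares are alike, and the part of Sertoli RNA in the spermatid levels was not tested. The DMRT1 difference in round spermatids was 1.70 without opossum replicate 3 (edgeR adjusted p = 0.0764). In elongating spermatids ALDH1A2 stood at 0.559 ± 0.638 CPM in mouse and 9.11 ± 6.77 CPM in opossum (SD, n = 3). The log2 difference was 2.92 (edgeR adjusted p = 0.0333). ALDH1A2 passed the filter on low counts there through opossum alone, so the filtered test is no support. With no filter the difference was 2.91 (edgeR adjusted p = 0.00872). It was -0.98 with counts rounded up. The call was lost when mouse replicate 2 or 3 or opossum replicate 2 or 3 was left out (adjusted p = 0.0818, 0.0539, 0.0977 and 0.117).

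Counted over members, 5 of the 6 tested genes were called between species in spermatogonia, where 59.6% of 7047 genes were called, 3 of 5 in spermatocytes (background 65.7%) and 3 of 4 in round spermatids (69.7%). The count was 3 of 3 in elongating spermatids (70.1%), 2 of 2 in Sertoli cells (44.8%), 4 of 4 in Leydig cells (59.0%) and 3 of 4 in peritubular or stromal cells (51.2%). A call required an adjusted p under 0.05 and a log2 difference of at least 1. With backgrounds this high, the counts do not set the members apart. The opossum libraries were also shallower and named fewer genes. The part of depth, annotation and class make-up in the species differences was not tested. The median log2 difference of the members was -1.60 in spermatogonia, against -0.19 over all genes, and 0.36 in spermatocytes, against 0.01. Without mouse replicate 2 the spermatocyte count was 5, since STRA8 gained a call and RBP4 passed the filter on low counts in that fit and was called. Members that entered a test had passed the filter on low counts, some of them through the species where they are high alone, so the counts support nothing about the members. RBP4, for example, was tested with all libraries in spermatogonia and peritubular or stromal cells only.

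For the change from spermatogonia to spermatocytes, 8 of 9 tested members were called in mouse (background 58.6%), 7 of them lower (background 27.0%), and 3 of 4 in opossum (background 64.0%), where KIT and DMRT1 fell and ALDH1A1 rose. Some mouse members, among them SOHLH1, RARG and KIT, passed the filter on low counts through spermatogonia, where they are high. Their direction was thereby fixed, so the mouse count of lower members supports nothing about the members. The changes differed between species for 3 of 6 members (background 52.8%), STRA8, DMRT1 and ALDH1A1, all higher in opossum (background 29.0%). ALDH1A1 entered that fit through opossum alone. In mouse, RBP4 fell by 3.81 (SE 0.83, edgeR adjusted p = 0.00910). Among somatic classes, Leydig against Sertoli cells gave 3 of 4 members in mouse (background 44.5%) and 2 of 5 in opossum (background 41.3%), and peritubular or stromal against Sertoli cells gave 2 of 4 (background 24.6%) and 3 of 5 (background 38.0%). The mouse count of 2 became 1 without replicate 1, and the opossum Leydig count became 1 without replicate 1 or replicate 2.

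In bulk opossum testis, where fewer cells of a type and less RNA per cell cannot be told apart, RBP4 was a gene of the youngest testes. Its TPM was 7.28 and 2.56 at 1 month and 0.242, 0.0970, 0.0983 and 0 at 2 months, and no later library exceeded 0.532. The 1-month libraries stood above all 18 others. From 1 to 2 months RBP4 fell by 2.29 on the log2(TPM + 1) scale (SE 0.27), and from 1 month to adult it fell by 2.30 (SE 0.25). RBP4 passed the filter on low TPM through the 1-month libraries alone, so the filtered test is no support. With no filter the limma adjusted p was 4.38e-06 and 7.13e-07.

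ALDH1A2 also fell with age. It stood at 19.2 and 19.9 TPM at 1 month, at 22.3, 5.79, 9.91 and 17.2 TPM at 2 months, at 2.99, 3.25, 3.10 and 4.34 TPM at 3 months and at 5.15, 2.94 and 5.42 TPM at 4 months. Adults ranged from 2.41 to 14.5 TPM, with a median of 5.84. The ages of 2 and 3 months did not overlap (log2 difference -1.60, SE 0.45, limma adjusted p = 0.0101), nor did 1 month and adult (-1.59, SE 0.51, adjusted p = 0.0152). The latter had an adjusted p of 0.0947 or 0.106 when the first or the second 1-month library was left out. The 16 peritubular or stromal markers, the class with the highest opossum ALDH1A2, summed to 8964 TPM at 1 month, 4414 at 2 months, 2219 at 3 months, 3484 at 4 months and 2140 in adults. Their part in the course of ALDH1A2 was not tested. Coverage of ALDH1A2 per unit of FPKM was 17.3% to 23.9% of that of other genes, and of ALDH1A1 4.24% to 4.32%, so their TPM is compared here between libraries only. As the ALDH1A2 share varied between libraries, that comparison is not on an equal footing for it. Its mean coverage per aligned gigabase was 3.10, 2.45, 0.375, 0.506 and 0.812, in order from 1 month to adult.

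DMRT1 rose after 1 month with a wide spread. It stood at 41.7 and 41.7 TPM at 1 month, at 80.9, 191, 205 and 132 TPM at 2 months, at 178, 242, 217 and 262 TPM at 3 months and at 210.4, 210.5 and 67.3 TPM at 4 months. Adults ran from 40.3 to 409.7 TPM, with a median of 237. All libraries of 2, 3 and 4 months lay above 1 month, and 1 adult library lay below. From 1 month to adult the log2 difference was 2.13 (SE 0.62, limma adjusted p = 0.00895), and 0.0743 or 0.0753 was the adjusted p when the first or the second 1-month library was left out. With the replicate number as a block it was 1.51 (adjusted p = 0.0989). From 1 to 2 months the difference of 1.76 missed the threshold (limma adjusted p = 0.0572) and was called in 4 of 14 alternatives. Without 2-month replicate 1 it was 2.03 (limma adjusted p = 0.0302), which leaves only rRNA-depleted libraries at that age. With polyA libraries only, which leaves 1 library at 2 months, it was 0.94.

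Of the 3 libraries lowest in DMRT1 after 1 month, 2 were low in markers of Sertoli cells and of spermatogonia, the classes with the highest DMRT1, and 1 was not. Adult replicate 1 (40.3 TPM) and 4-month replicate 3 (67.3 TPM) had Sertoli marker sums of 56.4 and 56.3 TPM, against 173 and 192 TPM on average at their ages. Their spermatogonia marker sums were 470.3 and 367 TPM, against 723 and 609.7. That list includes UCHL1 and EPCAM, at 3057 and 248 CPM in opossum Sertoli cells and 2778 and 16.1 CPM in spermatogonia. Its sum therefore does not stand for spermatogonia alone. A list of 13 undifferentiated spermatogonia genes without UCHL1 and EPCAM summed to 54.8 and 107 TPM, against 179 and 160 on average. The other one, 2-month replicate 1 (80.9 TPM), had 490 TPM of Sertoli and 827 TPM of spermatogonia markers. Adult replicate 3 was as low in these markers, at 58.6 and 366 TPM, with DMRT1 at 139 TPM. Adult replicate 4, the highest in DMRT1, had 273 and 1171 TPM. On the 13-gene list adult replicate 3 had 73.6 TPM and 2-month replicate 1 had 142 TPM. Spermatocytes, which held less DMRT1, had marker sums of 1189, 6543 and 608 TPM in adult replicate 1, 4-month replicate 3 and 2-month replicate 1. The means at these ages were 3490, 5017 and 1292 TPM. Adult replicates 3 and 4 had 6255 and 2658 TPM. The part of these markers in the DMRT1 level was not tested.

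STRA8 and KIT were lowest on average at 1 month, and neither 2 months nor adult, the ages tested against it, was called. STRA8 stood at 2.64 and 2.44 TPM at 1 month, at 5.51 to 8.13 TPM at 2 months, at 5.89 to 7.12 TPM at 3 months, at 5.31 to 9.66 TPM at 4 months and at 1.70 to 7.83 TPM in adults. Ages of 1 and 2 months did not overlap, with means 2.50-fold apart (log2 difference 1.04, limma adjusted p = 0.0778). It was called in 3 of 14 alternatives, among them library preparation as a covariate (1.72, limma adjusted p = 0.00958), and was 0.09 with quantile normalization (adjusted p = 0.919). The lowest adult library, at 1.70 TPM, was the rRNA-depleted one. KIT stood at 3.84 and 5.66 TPM at 1 month, at 15.6, 6.36, 6.07 and 13.9 TPM at 2 months, at 6.80 to 10.1 TPM at 3 months, at 11.5 to 17.5 TPM at 4 months and at 3.20 to 17.4 TPM in adults. The libraries of 1 month lay below those of 2, 3 and 4 months, and overlapped with adults (adult minus 1 month 0.79, limma adjusted p = 0.215).

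ALDH1A1 was not called between any of the ages compared, other than with quantile normalization, where 2 months (limma adjusted p = 0.0252) and adult (1.16, adjusted p = 0.0105) were above 1 month. Its TPM was 412 and 422 at 1 month, 373 to 713 at 2 months, 575 to 685 at 3 months, 286 to 765 at 4 months and 369 to 881 in adults (adult minus 1 month 0.66 on the log2 scale, limma adjusted p = 0.148). Over the 6 genes, 1 was called from 1 to 2 months (background 26.7%), 1 from 2 to 3 months (26.5%), 0 from 3 to 4 months (0.0%) and 0 from 4 months to adult (0.0104%). The first of these is RBP4, which passed the filter through 1 month alone. From 1 month to adult it was 3, RBP4 among them (background 45.3%), and 1 without either 1-month library. From 1 to 2 months the count became 2 without 2-month replicate 1. In the limma fit 1337 of 19300 genes had an unadjusted p under 0.05 from 3 to 4 months and 1490 from 4 months to adult, with none of the members among them.

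**Figure D5:**
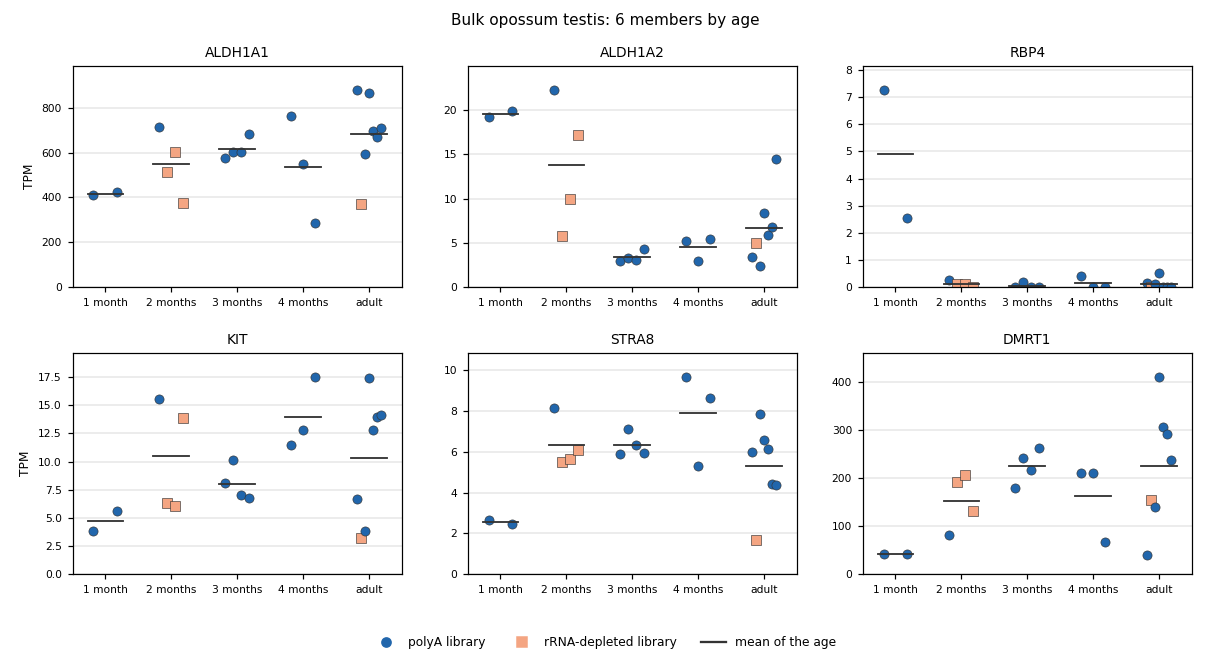
TPM of the 6 genes named in opossum in each bulk library by age, with polyA and rRNA-depleted libraries marked and a line at the mean of each age. RBP4 stands at 2.56 and 7.28 TPM at 1 month and at or below 0.532 TPM later, and DMRT1 at 41.7 TPM at 1 month against 40.3 to 409.7 TPM in adults.

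Other genes of retinoid metabolism and signalling were taken from a list of 37. In spermatogonia 18 of them were tested between species, and 10 were called, 5 higher and 5 lower in opossum, near the 59.6% called over all genes. CRABP1, which binds retinoic acid in the cell, was lower in opossum by a log2 difference of -8.95, at 0.782 ± 0.725 CPM (SD, n = 3). RARB, another retinoic acid receptor, stood at 1.42 CPM in mouse and 68.3 ± 24.6 CPM in opossum (log2 difference 5.02, edgeR). DHRS3, a retinaldehyde reductase, was higher in opossum (log2 difference 2.48, edgeR). The median over the tested genes of the list was 0.14, against -0.19 over all genes.

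In spermatocytes 12 of 19 tested genes of this list were called, 7 higher in opossum (65.7% over all genes). BCO1, which cleaves beta-carotene to retinaldehyde, stood at 193 ± 87.2 CPM in opossum and 1.98 ± 0.651 CPM in mouse (SD, n = 3), and rose within opossum from 0.398 CPM in spermatogonia. LRAT, which esterifies retinol, was lower in opossum (log2 difference -4.99, edgeR). In Sertoli cells 6 of 17 were called (44.8% over all genes), 2 higher, of which ALDH1A3, a further retinaldehyde dehydrogenase, stood at 167 ± 36.8 CPM in opossum and 4.47 ± 3.87 CPM in mouse (SD, n = 3). In Leydig cells 12 of 16 were called, 6 in each direction (59.0% over all genes), and in peritubular or stromal cells 9 of 15, 5 of them higher in opossum (51.2%).

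Of 23 further genes of the meiotic entry programme, 14 were tested between species in spermatogonia and 9 called, 4 higher and 5 lower in opossum (59.6% over all genes). REC114, a partner in forming meiotic DNA breaks, stood at 99.6 CPM in mouse and 715 CPM in opossum. DMC1, the meiotic recombinase, stood at 121 and 23.7 CPM. In spermatocytes 6 of 14 were called, 3 in each direction (65.7% over all genes), among them MEI4 (5.50) and the break-forming enzyme SPO11 (-2.57). From spermatogonia to spermatocytes 11 of 23 were called in mouse, 7 higher (58.6% over all genes), and 7 of 14 in opossum, 5 higher (64.0%).

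In bulk testis 5 of 13 tested meiotic entry genes rose from 1 to 2 months and none fell (26.7% of all genes called), and 8 rose from 1 month to adult (45.3% called). The summed spermatocyte markers went on average from 246 TPM at 1 month to 1292 at 2 months, 7854 at 3 months and 3490 in adults, and their part in this rise was not tested. The 2-month libraries ran from 202 to 2654 TPM, the lowest of them below both 1-month libraries (237 and 254 TPM). MEIOC, which keeps germ cells in meiotic prophase, rose by 5.51 and SMC1B, a meiotic cohesin, by 4.68 on the log2(TPM + 1) scale. Of 26 tested retinoid genes, 5 were called from 1 to 2 months, 2 of them higher, and 9 from 1 month to adult, 4 of them higher, both shares below those of all genes. CRABP1 fell by 3.51, in the same interval in which RBP4 and ALDH1A2 fell.

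Genes whose course over cell classes was most like that of each member were ranked by Pearson's r of log2(CPM + 1) over the class sums, 25 in mouse and 27 in opossum, which share libraries and depth. Genes listed in opossum by identifier only are passed over in what follows, so a named gene is 1 of the 3 nearest and not always the first. Nearest to mouse Stra8 were RHOX13 (r = 0.975), itself a spermatogonia marker, and SPINT1 (0.958), and opossum STRA8 had TDRD12 (0.946) and PIWIL2 (0.921) among its 3 nearest. Mouse Sohlh1 was nearest to NANOS1 (0.957) and RCOR2 (0.951), and Sohlh2 to MEI4 (0.929) and EME1 (0.918). Mouse Kit was nearest to KCND2 (0.888), and KIT of both species had PIWIL4 among its nearest genes (0.884 in mouse, 0.841 in opossum). Mouse Dmrt1 was nearest to BEND4 (0.930) and opossum DMRT1 to PSMA8 (0.945).

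On the retinoid side, mouse Aldh1a1 had GSTM1 (0.967) among its nearest genes, and opossum ALDH1A1 was nearest to XPNPEP1 (0.908). Mouse Aldh1a2 was nearest to OXNAD1 (0.954), Cyp26b1 to SLC38A5 (0.956) and COL1A1 (0.955), Rarg to STX3 (0.914) and Rbp4 to GNAZ (0.905). Opossum ALDH1A2 had FBXO24 (0.910) and CAP2 (0.900) among its 3 nearest. Over the 20 bulk libraries, RBP4 was nearest to TNFRSF11B (0.972), DMRT1 to HLTF (0.980), ALDH1A1 to ACOX3 (0.922), ALDH1A2 to SLCO4A1 (0.915) and STRA8 to CDKN2A (0.876), and KIT had ELAVL2 (0.893) among its 3 nearest. These are descriptions, with no test.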

How the data were processed

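Adult testis cells of mouse (3 libraries) and opossum (3 libraries) and 20 opossum bulk testis libraries were analysed. The single-cell matrices deposited by the authors hold estimated counts of UMIs, mostly not whole numbers, and the step that made them is not given in the sources used here. The submitters' processing notes name Cell Ranger 6.0.1, HISAT2 2.2.1, SAMtools 1.12 and StringTie 2.1.4, and the opossum build is not given in the sources used here. The bulk tables deposited by the authors give coverage (signal), FPKM and TPM per gene, per the file headers, and read counts are not given there. Aligned bases, estimated from coverage over FPKM, were 2.90 to 7.12 gigabases per library.

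Barcodes under 1000 UMIs or under 500 genes were dropped, as was the top 8% of Scrublet scores, and the rest were clustered with scanpy 1.11.5 (2000 variable genes, 30 components, Leiden resolution 1, 8 neighbours per library) without the members and mitochondrial genes. Clusters were named from marker lists. Counts were summed per library and class of at least 20 cells and tested with edgeR 4.0.16 (quasi-likelihood, TMM, Benjamini-Hochberg). Genes were matched between species by symbol (10751 genes). DESeq2 1.42.0 was an alternative. Bulk log2(TPM + 1) was fitted for 19300 genes (1 TPM or more in 2 or more libraries) with limma 3.58.1. A call needs an adjusted p under 0.05 and a log2 difference of at least 1. Limits at 0 are 3 counts over the group and cover counting error only. The fits were tested on simulated data, where they kept the direction of nearly all true changes but called few or none of them in several comparisons, so a missed threshold does not show that values did not differ.

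All 10 genes were named, together with up to 2 of the 3 genes of highest correlation with each, and up to 4 called genes of largest difference per pathway list and comparison. The members and lists were chosen with earlier results of these data known. Alternatives changed the filter, depth, clustering, scaling, library preparation and libraries. Counts rounded up, clusters with 3 markers left out and coverage per aligned base were chosen after seeing the data. Some genes that the rule would name are not reported here.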

Additional observations from a re-analysis of the deposited data

Results flagged for a closer look

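In opossum bulk testis, 1 library of 3 months (replicate 2) stood apart from the others of its age in RBP4, at 0.199 TPM against 0 in the other 3. Among adults, replicate 4 stood apart at 0.532 TPM. With 3 of 4 values at 0 Dixon's test flags any other value, so the first flag carries no information. In other groups the test flags about 1 in 20 by chance. Both values are low.

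The change from spermatogonia to spermatocytes differed between species by the interaction term of the edgeR fit for STRA8 (4.02), DMRT1 (3.43) and ALDH1A1 (6.03), each on the log2 scale as opossum minus mouse.

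For 3 somatic contrasts every mouse library moved up and every opossum library down on the log2(CPM + 1) scale. ALDH1A1 in Leydig minus Sertoli cells was 4.84 in mouse and -0.72 in opossum on average, and ALDH1A2 was 2.24 and -1.82. ALDH1A1 in peritubular or stromal minus Sertoli cells was 2.50 and -1.67. The difference was not tested in these 3 cases. For ALDH1A1 in opossum Leydig against Sertoli cells, the edgeR fit gave -0.23 (adjusted p = 0.552) and changed sign in 2 of 11 alternatives. Opossum ALDH1A2 was low in both classes, at 0.307 CPM in Leydig cells and 3.60 CPM in Sertoli cells on average.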

How the results depend on the processing

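Of the values of members that were called in at least 1 setting, 757 kept their direction and call, 26 lost a call, 22 gained one and 6 changed sign. KIT in spermatocytes (opossum minus mouse) became -0.13 without mouse replicate 1, -0.21 without mouse replicate 2 and -0.26 without opossum replicate 2, and 2.61 without mouse replicate 3. ALDH1A2 was -0.98 in elongating spermatids with counts rounded up, and its interaction was -0.87 with DESeq2 and -2.26 with counts rounded up. The cause was not tested. Members never called also changed sign, most often STRA8 from 2 to 3 months (9 of 16 alternatives).

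Of the counts of called members, 239 stayed within 1.5 times and 19 moved. With no filter on low counts the count was 5 in elongating spermatids, 4 in Sertoli cells and 5 in mouse peritubular or stromal against Sertoli cells. With at least 2000 UMIs per cell these were 1, 0 and 4, and 1 in peritubular or stromal cells between species. From 1 to 2 months in bulk it was 3 with FPKM, with quantile normalization and with coverage per aligned base, and 2 with preparation as a covariate. It was 1 for opossum Leydig against Sertoli cells with counts rounded up. Leaving out 1 library gave 3 to 5 in spermatocytes, 1 to 2 in mouse peritubular or stromal against Sertoli cells, 1 to 2 in opossum Leydig against Sertoli cells, 1 to 2 from 1 to 2 months and 1 to 3 from 1 month to adult.

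Same-numbered libraries did not deviate together throughout. Their r ran from -0.0608 to 0.131 in single cells and from -0.285 to 0.672 in bulk, against -0.195 to 0.145 and -0.767 to 0.573 for other numbers. The 2 highest bulk values (0.672 and 0.620) were of same-numbered libraries, and nothing in the labels says that a number marks a shared source, so they share only a number. With the replicate block, KIT in spermatogonia was 1.05 (edgeR adjusted p = 0.0120) and DMRT1 from 1 month to adult 1.51 (limma adjusted p = 0.0989). Depth limits low members, and in opossum the fewest spermatogonia of a library were 98 cells. Another scaling moved the median of all genes by 0.23 (opossum spermatocytes minus spermatogonia, DESeq2) and by -0.53 (3 minus 2 months, FPKM).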
